A study of Homo sapiens with 24 samples.

Results

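This report compares T-47D cells that carry the Y537S mutation of the estrogen receptor with T-47D cells that carry the D538G mutation, all given the negative control oligo of the miRNA mimics. The libraries were chosen by genotype and transfection as the sample labels give them, which left 4 of 24 libraries, 2 for each genotype. T-47D is an established, estrogen receptor positive line from a ductal carcinoma of the breast. Each of the 2 genotypes had 2 clones with 1 library per clone, named clone 1 and clone 2 for Y537S and A5 and C2 for D538G. The cells are heterozygous and express the mutant allele from the endogenous ESR1 locus. They were kept in hormone-deprived medium, transfected at 10 nM and collected 24 h later for poly-A RNA-seq. WT clones D1 and D4, from the same line without either mutation and given the same control oligo, are quoted beside the mutant values where they help to place them. The genotype characteristic of the Y537S samples has transposed digits (Y573S), while their titles read Y537S.

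Estrogen receptor alpha, the product of ESR1, is a nuclear receptor. Estradiol binding moves the last helix of its ligand-binding domain, helix 12, into the position in which coactivators bind, and the receptor then activates genes through estrogen response elements and through other DNA-bound factors. Y537S and D538G change neighbouring residues beside helix 12. Both are known to favour the active shape without hormone and arise in breast cancers treated with hormone therapy. A direct comparison of the 2 mutants asks in which genes the alleles, or the clones that carry them, differ.

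The altered codons lie on chromosome 6 of hg19, on the plus strand, in the coding part of the last of 8 ESR1 exons, at chr6:152419922-152419924 for Y537S and chr6:152419925-152419927 for D538G, in a protein of 595 residues. The reference sequence around them, chr6:152419913-152419936 and residues 534 to 541, is shown because the cells compared differ by design in these codons, which are in capitals (TAT for tyrosine, GAC for aspartate).
ESR1 residues 534 to 541: gtgcccctcTATGACctgctgctg
Gene counts do not show the bases, so the mutations themselves were not checked here.

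ESR1 was expressed at 256.5 normalized CPM (counts scaled to a common library size) in Y537S clone 1, 167.5 in clone 2, 241.5 in D538G clone A5 and 239.7 in clone C2. The Y537S clones lay on either side of the D538G clones, so the groups overlapped. The log2 difference, Y537S minus D538G, was -0.16 with a standard error of 0.17 (adjusted p = 0.612 in the quasi-likelihood test of edgeR, adjusted by Benjamini and Hochberg's method over all genes tested). It was 0.10 without Y537S clone 2, and -0.48 without Y537S clone 1, where it passed (adjusted p = 0.00675). The WT clones held 116.5 and 115.4 CPM. The luminal markers fitted the label of a luminal breast line: all 12, among them KRT8, KRT18, GATA3, FOXA1 and ESR1, were above 1 CPM in every mutant library, and their summed level was 13077 CPM in each Y537S clone, 12566 in A5 and 12268 in C2. The 5 endothelial markers summed to between 0.0471 and 0.165 CPM, the 8 immune markers to between 2.68 and 4.34 CPM and the 8 basal or myoepithelial markers to between 6.87 and 11.2 CPM. The 8 fibroblast markers summed to between 49.2 and 69.4 CPM, with at least 6 of them under 1 CPM in each of these libraries. The 4 libraries held 33756400 to 41382707 counts. Lower expression per cell and fewer expressing cells cannot be told apart in bulk RNA.

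Of 14935 genes tested, 925 (6.19%) differed between the genotypes at an adjusted p under 0.05. Of these, 587 (3.93% of the genes tested) were higher and 338 (2.26%) were lower in Y537S cells. The called differences were mostly moderate, with a median size of 0.70 on the log2 scale against 0.21 over all genes tested, and 261 of them were at least 2-fold, 165 higher and 96 lower. Over all genes tested the median log2 difference was 0.0039. An unadjusted p under 0.05 was found for 3501 genes. With 2 clones against 2, an exact permutation test of a single gene cannot go below p = 0.33, so the calls rest on the spread that edgeR shares across genes. Leaving out D538G clone A5 gave 215 called genes and leaving out C2 gave 356, whereas leaving out Y537S clone 1 gave 1780 and leaving out Y537S clone 2 gave 1629, each fit assuming that the lone clone varies like the remaining pair. The counts of each genotype come from clones and a table of their own, so the mutation, the clones' origin and any difference in handling cannot be told apart.

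The same 4 clones were also given a miR-301b mimic, which provides the genotype difference in separate libraries. There, 1019 of 15203 genes (6.7%) were called, 667 higher and 352 lower in Y537S cells. Of these genes, 661 were called in the same direction in the control libraries, which is 71.5% of the control calls and 64.9% of the miR-301b calls. Every Y537S library was above, or every one below, both D538G libraries for all 925 called genes in the control transfection and, in the same direction, for 908 of them in the miR-301b transfection. Over all genes tested, 54.9% did not overlap in the control libraries. That share is not given here for the miR-301b libraries, which come from the same clones, so the 908 have no background beside them. Across the 14734 genes tested in both transfections, the log2 differences had a Pearson r of 0.80; the points share clones but no library. A fit of all 8 libraries with the clone as a block tested whether the genotype difference changed between the transfections, and 3 of 15581 genes (0.0193%) passed, with 801 at an unadjusted p under 0.05. They were named after their values were seen. ADAM9, a membrane-anchored protease, stood at 400.3 and 373.1 CPM in Y537S and 367.1 and 414.2 CPM in D538G control libraries, and at 131.0 and 159.0 CPM against 226.8 and 217.8 CPM with the miR-301b mimic. The other two, VARS and CT45A7, were under 4 CPM in all 8 libraries. CT45A7 belongs to a family of near-identical genes, and VARS encodes a tRNA synthetase that every cell uses, so their counts are uncertain.

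**Figure D1:**
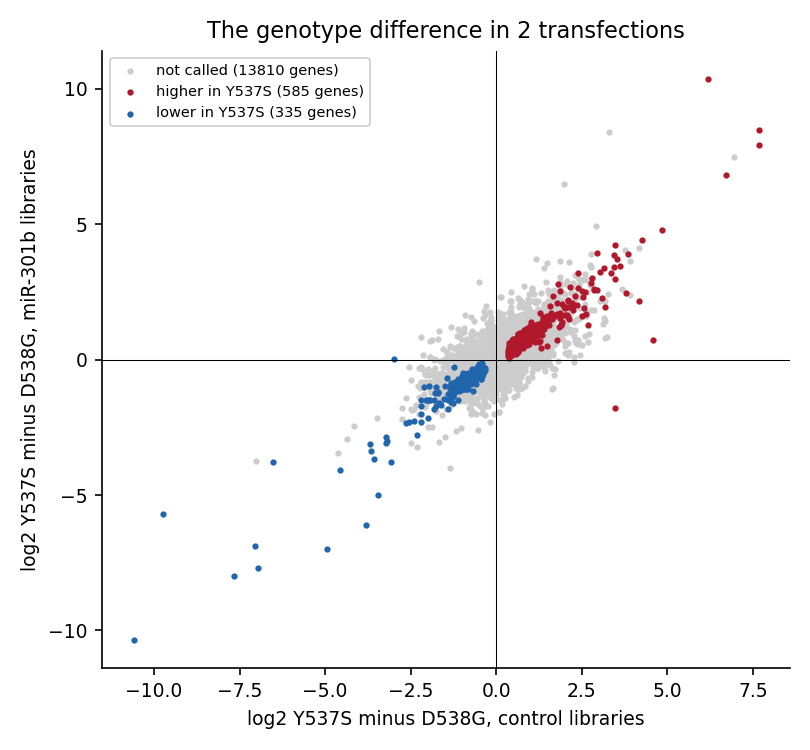
Log2 differences, Y537S minus D538G, of single genes in the control libraries (horizontal axis) and in the miR-301b mimic libraries (vertical axis), for 14734 genes tested in both. Genes called in the control libraries are red where higher and blue where lower in Y537S cells, and they lie along the diagonal with few exceptions.

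Among the largest differences were those of genes near 0 in the clones of 1 mutant and expressed in those of the other. ZNF655, a zinc-finger gene at chr7:99156029-99174076, was at 35.04 and 36.46 CPM in the Y537S clones and 0.412 and 0.269 CPM in the D538G clones. It was 105-fold higher in Y537S cells, a log2 difference of 6.71 with a standard error of 0.22 (adjusted p = 7.97e-05), and the WT clones held 27.6 and 33.4 CPM. Among the D538G libraries of all 3 transfections, it did not exceed 0.638 CPM, and among the Y537S libraries of all 5 it did not fall below 26.3 CPM. P3H2, which encodes a collagen prolyl 3-hydroxylase, showed the reverse. It was at 0.594 and 0.0942 CPM in Y537S clones and at 44.3 and 41.8 CPM in D538G clones, a log2 difference of -6.97 with a standard error of 0.42 (adjusted p = 0.00191), and at 0.434 and 0.478 CPM in WT clones. For ZNF655 the D538G clones thus stood apart from the Y537S and WT clones, and for P3H2 likewise. The next tested genes at higher coordinates than P3H2 (chr3:189674517-189840226) were also lower in Y537S cells: CLDN1, a tight junction claudin, by 1.36 on the log2 scale, CLDN16 with a log2 difference of -1.42 and IL1RAP with one of -0.48, all called. The next tested genes at lower coordinates were not called: TP63 (-0.92), TPRG1 (-0.29) and TPRG1-AS1 (2.07).

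A further 3 called genes were below 0.1 CPM in both Y537S clones and above 1 CPM in both D538G clones, and no called gene had the opposite pattern. KCNJ2, an inward rectifier potassium channel, had 0 counts in both Y537S libraries against 6.45 and 3.85 CPM in D538G clones, at least 69.6-fold lower when 3 counts per library are taken as the floor. CLEC2B, a C-type lectin, had 0 counts in both Y537S libraries against 3.46 and 2.21 CPM, at least 38.3-fold lower. ART4, the carrier of the Dombrock blood group, had 2 and 0 counts in Y537S libraries and 109 and 76 in D538G libraries.

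Among the other genes that were much higher in Y537S cells, SERPINA6, which encodes corticosteroid-binding globulin, was at 250.2 and 225.8 CPM in Y537S clones and 41.7 and 42.3 CPM in D538G clones, 5.75-fold higher (adjusted p = 8.76e-05). AHNAK2, a large scaffold protein, was at 94.4 and 188.7 CPM against 7.91 and 12.2 CPM (14.4-fold, adjusted p = 0.00403). Both lie on chromosome 14, and the WT clones had levels of each well above those of D538G clones, at 101.6 and 207.4 CPM for SERPINA6 and 170.0 and 139.3 CPM for AHNAK2. ARSJ, an arylsulfatase, was at 42.3 and 22.0 CPM against 2.61 and 3.79 CPM, and SKAP2, an adaptor of SRC family kinases, at 35.2 and 64.0 CPM against 9.88 and 9.28 CPM. BCHE, butyrylcholinesterase, XK, a membrane protein of the Kell blood group complex, and ACKR2, a chemokine scavenger receptor, had log2 differences of 3.43, 2.29 and 2.26. ACKR2 was at 25.8 and 19.7 CPM in Y537S clones, 3.79 and 5.88 CPM in D538G clones and 4.88 and 4.98 CPM in WT clones, so here the Y537S clones stood apart. SULF1, an extracellular heparan sulfatase, had a log2 difference of 2.94 (adjusted p = 0.0418) but was not called by DESeq2 (adjusted p = 0.0752), after removal of a trend with GC content (0.058) or when each clone's control and miR-301b counts were added (0.0501).

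Among the other genes that were much lower in Y537S cells, SEMA3A, a secreted axon guidance cue, was at 4.85 and 2.33 CPM in Y537S clones and 34.5 and 32.9 CPM in D538G clones, and at 0.732 and 0.567 CPM in WT clones. FBXL7, an F-box protein, was at 1.70 and 1.58 CPM against 22.9 and 20.6 CPM (log2 difference -3.70, adjusted p = 0.000523). RGL1, an effector of RAS-like GTPases, was at 5.24 and 2.61 CPM against 37.6 and 35.4 CPM. GJA1, the gap junction protein connexin 43, was at 3.25 and 7.23 CPM against 30.0 and 23.5 CPM, and AQP3, a water and glycerol channel, at 2.89 and 4.35 CPM against 21.8 and 12.2 CPM. FGFBP2, DLX5 and COL4A6 had log2 differences of -3.57, -2.63 and -2.42. The call of DLX5 was lost without D538G clone A5 (adjusted p = 0.109). COL4A6 and COL4A5, neighbouring genes that encode chains of basement membrane collagen, fell together, and the WT clones were above both mutants for COL4A6, at 27.6 and 48.5 CPM.

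**Figure D2:**
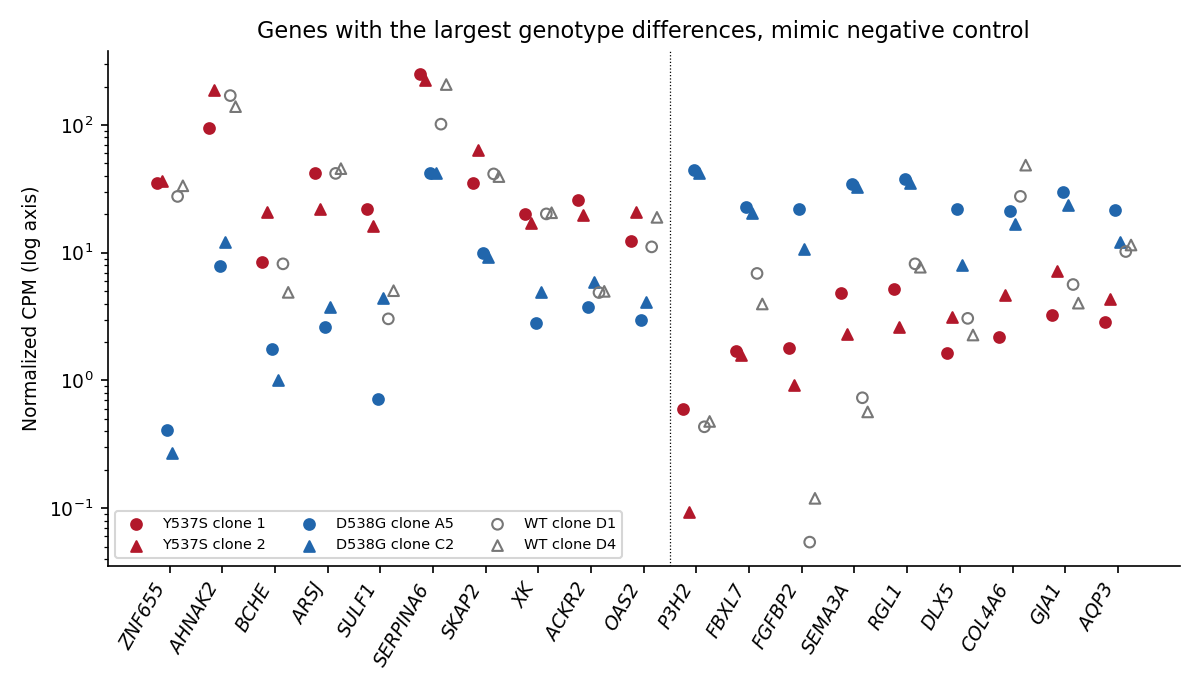
Normalized CPM on a log axis in each library of the mimic negative control, for the 10 genes with the largest positive log2 difference and 9 of the 10 with the largest negative one among called genes that averaged 3 log2 CPM or more and whose groups did not overlap in both transfections. Red marks Y537S, blue D538G and open grey symbols WT clones, and in every gene shown both red symbols lie on the same side of both blue symbols.

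Many of the called genes were neighbours on a few chromosomes. Genes with a position on hg19 were cut into 287 stretches of 47 to 53 consecutive tested genes, and stretches whose median log2 difference was 0.25 or more in size in the miR-301b libraries were taken as shifted, a limit set after these medians were seen. This gave 26 stretches, 25 higher and 1 lower in Y537S cells. The smallest median inside the limit was 0.27 in size and the largest outside it was 0.24. In the control libraries, which were not used to choose them, the 261 remaining stretches had medians between -0.25 and 0.31. The shifted stretches formed 8 blocks with 1311 genes, 8.78% of the genes tested, and held 389 of the 925 called genes (42.1%). Within the blocks 29.7% of genes were called, 363 higher and 26 lower in Y537S cells, and outside them 3.93%, 224 higher (1.64% of the genes outside) and 312 lower (2.29%). Since 25 of the 26 stretches were chosen for higher levels in the same Y537S clones, leaving them out lowers the share of higher calls by construction. The blocks were chosen for large differences in other libraries of the same clones. A larger share of calls inside them than outside therefore follows in part from that choice.

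The longest block was the whole of chromosome 14, from 19.6 to 107 Mb, with 467 tested genes. Of these, 431 (92.3%) had a positive log2 difference, the median was 0.49 (1.40-fold) in control and 0.48 in miR-301b libraries, and 188 genes were called, all higher in Y537S cells (edgeR; 2 genes were lower at an unadjusted p under 0.05 and 1 with DESeq2). Relative to the mean of the WT clones, the chromosome 14 median was 0.0020 in Y537S clone 1 and -0.03 in clone 2, but -0.47 in D538G clone A5 and -0.49 in C2. The first 2 stretches of the chromosome, up to position 35008910, had medians of 0.85 and 0.82, and the other 7 had medians of 0.39 to 0.48. On chromosome 12, a block of 400 genes from 56.5 to 133.8 Mb had a median of 0.34 with 89 genes higher and 2 lower. A shorter block at 47.5 to 50.5 Mb had a median of 0.36 with 12 of 50 genes higher and 1 lower. The stretches between these blocks missed the limit in the miR-301b libraries, with medians of 0.22 and 0.23. Their control medians were 0.31, with 11 genes higher and 0 lower, and 0.21, with 4 higher and 1 lower. KRT80 lies in the first of them and CDK2 in the second. On chromosome 16, 150 genes from 67.2 to 85.8 Mb had a median of 0.37, with 19 genes called higher by edgeR and 0 lower (2 at an unadjusted p under 0.05 and 1 with DESeq2). For the long chromosome 12 block and for chromosome 16 the D538G clones were also the farther from WT, with medians of -0.37 and -0.35 on chromosome 12 and -0.49 and -0.52 on chromosome 16, against -0.11 and -0.03, and -0.29 and -0.11, in the Y537S clones.

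The end of chromosome X showed the largest shift. Its 98 tested genes from 134 to 154.9 Mb had a median log2 difference of 0.90 (1.86-fold), 49 of them were called higher and 1 lower, and here the Y537S clones were the ones away from WT, at 1.00 and 0.90 against 0.16 and 0.11 in the D538G clones. The end of chromosome 13, 49 genes from 100.3 to 115.1 Mb, was the only block that was lower in Y537S cells, with a median of -0.64 and 21 genes called lower. It was 0.65 and 0.63 above WT in the D538G clones and 0.11 and -0.02 in the Y537S clones. Blocks on chromosome 19 (19.4 to 29.7 Mb) and chromosome 5 (140.2 to 140.9 Mb) had medians of 0.29 and 0.30. On chromosome 19, 6 of 49 genes (12.2%) were called, and on chromosome 5, 1 of 48 (2.08%), against 6.19% of all genes tested. The chromosome 5 block lies at the protocadherin clusters, whose transcripts share exons, and its clones of the same genotype differed from each other, at -0.69 and -0.17 relative to WT in Y537S and -0.45 and -0.87 in D538G cells. All 16 chromosomes without a shifted stretch had medians between -0.11 and 0.04. With the trend of log2 differences with GC content removed, the block medians were 0.47 for chromosome 14, 0.33 for the long block of chromosome 12, 0.91 for chromosome X and -0.63 for chromosome 13. DNA copy number was not measured in these samples, and its part in the shifts was not tested.

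**Figure D3:**
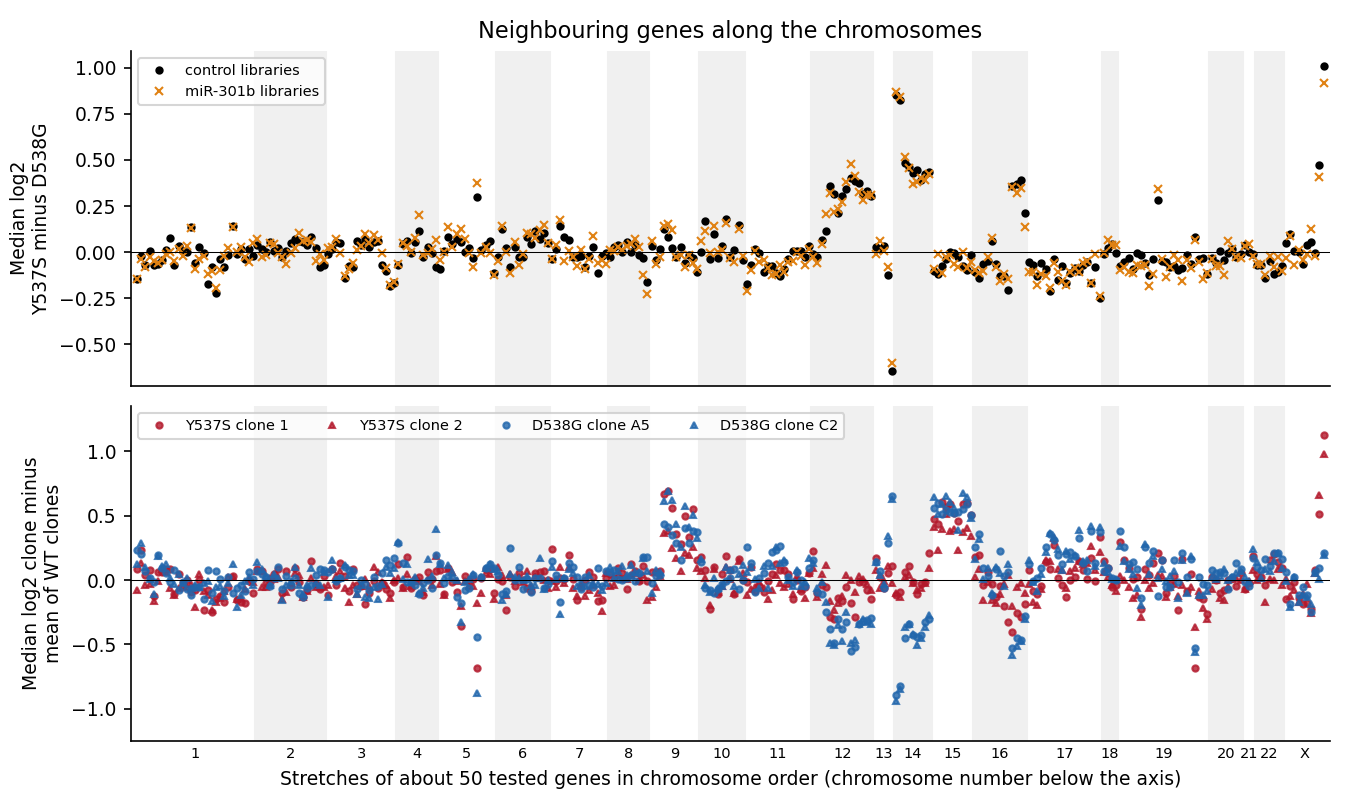
Medians of stretches of about 50 neighbouring tested genes in chromosome order. The upper panel gives the median log2 difference, Y537S minus D538G, in control (black) and miR-301b (orange) libraries, and the lower panel the median log2 level of each mutant clone relative to the mean of the WT clones. In the lower panel D538G clones fall to about -0.9 at the start of chromosome 14, and Y537S clones rise to about 1 at the end of chromosome X.

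The members of 19 gene lists, 612 distinct genes among those tested, held 66 called genes (10.8%, against 6.19% of all genes tested), of which 47 were higher and 19 lower in Y537S cells. Of the 66, 17 lay in the shifted blocks, all higher in Y537S cells. The lists were chosen with earlier results of these data known. Calls are those of edgeR where no tool is named. Called members beyond the 3 with the smallest p of each list were named after their values were seen.

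Interferon-stimulated genes had the largest median of the lists, 0.52 on the log2 scale against 0.0039 over all genes tested. Of 51 members tested, edgeR called 9 higher (17.6%) and 0 lower, and 38 had a positive difference. At an unadjusted p under 0.05, 20 were higher and 4 lower, and DESeq2 called 13 higher and 0 lower. They are induced by interferon receptors and by sensors of foreign RNA. OAS1, OAS2 and OAS3 make the oligoadenylates that activate RNase L. OAS2 was at 12.4 and 20.7 CPM in Y537S and 2.99 and 4.15 CPM in D538G clones, OAS3 at 205.3 and 165.4 against 92.8 and 110.5 CPM, and OAS1 at 1.94 and 3.55 against 0.522 and 0.239 CPM. The OAS genes are neighbours in the long chromosome 12 block, and IRF9, the DNA-binding subunit of the interferon-activated factor ISGF3, lies on chromosome 14. IRF9 was at 9.48 and 9.30 CPM in Y537S and 3.54 and 3.70 CPM in D538G clones. The log2 differences of all 4, 2.86, 2.24, 0.89 and 1.40 for OAS1, OAS2, OAS3 and IRF9, were above the medians of their stretches. Outside the blocks, IFIT1 (1.63), HERC6 (1.61), IFITM1 (1.78), IFITM2 (1.18) and DDX58, the RNA sensor RIG-I (0.62), were higher, and the median of the 44 members outside was 0.34. In the miR-301b libraries IFIT1 did not pass (adjusted p = 0.201), with the Y537S clones at 13.0 and 2.57 CPM on either side of the D538G clones at 2.13 and 3.42 CPM, and IFITM1 did not pass either (0.0535). The WT clones did not fall on a single side: for OAS2 they were at 11.1 and 18.9 CPM, near the Y537S clones, and for OAS3 at 40.8 and 53.9 CPM, below both mutants. Without D538G clone A5 1 member was called, and without Y537S clone 1 15 members were. None of 16 antigen presentation genes tested, which are also induced by interferon, was called by edgeR with the low-count filter or by DESeq2, with 1 higher and 1 lower at an unadjusted p under 0.05 and a median of -0.12. CD74, the invariant chain of class II molecules, was at 3.54 and 8.73 CPM in Y537S and 3.21 and 2.60 CPM in D538G clones, and was called without the low-count filter (adjusted p = 0.0248) and without Y537S clone 1 (0.00245).

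Most cell cycle genes had positive differences of smaller size, and few of them passed. Of 54 genes of G2 and mitosis, edgeR called 8 higher (14.8%) and 0 lower, 52 had a positive difference and the median was 0.38. At an unadjusted p under 0.05, 39 were higher and 0 lower, and DESeq2 called 22 higher and 0 lower. CDK1, the kinase that drives entry into mitosis, was at 326.6 and 303.2 CPM in Y537S and 224.8 and 247.4 CPM in D538G clones, a log2 difference of 0.44 with a standard error of 0.09 (adjusted p = 0.0321), and at 95.5 and 88.2 CPM in WT clones. CENPE, a kinetochore motor, was at 162.9 and 170.5 CPM in Y537S and 100.2 and 116.2 CPM in D538G clones, and KIF14, a kinesin of cytokinesis that is not on the list, at 102.9 and 99.4 against 62.9 and 76.8 CPM (log2 difference 0.56, adjusted p = 0.0331). For these 3 genes the order was WT lowest, then D538G, then Y537S, with no overlap between genotypes. G2E3, TMPO, GAS2L3 and CTCF were called and lie in shifted blocks, and LBR and CDCA2 were called and do not. Of the 49 members outside the blocks, 4 were higher and the median was 0.35. Leaving out D538G clone A5 left 0 called members, with CDK1 at an adjusted p of 0.276 and KIF14 at 0.206, and leaving out Y537S clone 2 gave 34. CDK1 was also not called without D538G clone C2 (0.0962).

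Of 42 genes of S phase, 40 had a positive difference, the median was 0.21 and edgeR called 3 higher, PRIM1, the catalytic subunit of primase, UBR7, a ubiquitin ligase, and GINS2, a subunit of the replicative helicase. All 3 lie in shifted blocks, so of the 38 members outside 0 were called by edgeR, with 14 higher at an unadjusted p under 0.05, 6 called higher by DESeq2 and a median of 0.19. Among 23 G1 cyclins, CDKs and inhibitors, CDK6 was at 21.6 and 15.3 CPM in Y537S and 8.87 and 9.61 CPM in D538G clones, and CDK2 at 141.8 and 136.5 against 99.3 and 107.5 CPM. CDK2 was not called when WT libraries were in the fit (adjusted p = 0.0728). None of the 5 genes named here was called without clone A5 (adjusted p from 0.109 for PRIM1 to 0.253 for CDK2) or without clone C2 (from 0.0673 for PRIM1 to 0.156 for UBR7), while 9 S phase genes were called without Y537S clone 2.

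The estrogen-responsive genes, which respond to the receptor that carries the mutations, were called in both directions. Of 53 tested, edgeR called 5 higher (9.43%, against 3.93% of all genes) and 2 lower (3.77%, against 2.26%) in Y537S cells, and the median was 0.08. DESeq2 called 9 higher and 5 lower. PGR, the progesterone receptor and a classical estrogen target, was at 1283 and 1368 CPM in Y537S clones and 815 and 871 CPM in D538G clones (1.60-fold, adjusted p = 0.00708), and at 998 and 1018 CPM in WT clones, between the mutants. TFF3, a secreted trefoil peptide, was at 28.4 and 22.4 CPM in Y537S, 6.84 and 8.30 CPM in D538G and 6.86 and 11.6 CPM in WT clones. OLFM1, a secreted olfactomedin, was at 145.3 and 161.4 CPM in Y537S, 61.28 and 60.01 CPM in D538G and 14.1 and 19.4 CPM in WT clones. GREB1, a receptor cofactor, and MYBL1, a MYB family factor, had log2 differences of 0.45 and 0.62. RAB31, a small GTPase of vesicle transport, went the other way, at 20.2 and 14.4 CPM in Y537S and 58.9 and 53.3 CPM in D538G clones, with the WT clones at 18 and 19.8 CPM. CALCR, the calcitonin receptor, was under 5 CPM in each of these libraries and had a log2 difference of -1.71. Of the called members, 4 were also called in the same direction in the miR-301b libraries, namely PGR, TFF3, OLFM1 and RAB31. GREB1, MYBL1 and CALCR were not. No called member of the list lies in a shifted block. Leaving out D538G clone A5 gave 2 higher and 1 lower members, C2 3 and 1, Y537S clone 1 9 and 6, and Y537S clone 2 8 and 6, with PGR at an adjusted p of 0.0528 and CALCR at 0.251 without A5 and 0.0776 without C2.

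Among 33 nuclear receptors tested, PGR was higher and RORB, an orphan receptor, lower. RORB was at 0.568 and 0.212 CPM in Y537S clones, 9.97 and 8.62 CPM in D538G clones, and 0 and 0.119 CPM in WT clones (log2 difference -4.56, adjusted p = 0.004), so it was nearly limited to D538G clones among these. Of 29 luminal and pioneer transcription factors, EHF, an epithelial ETS factor (log2 difference 0.55), KLF4, a Krüppel-like factor (0.72), and CTCF, an insulator protein on chromosome 16 (0.42), were higher. Of 35 coactivators and corepressors of the receptor, edgeR called NCOA7, a coactivator (0.78), and LCOR, a ligand-dependent corepressor (0.48), higher. LCOR was not called in the miR-301b libraries (adjusted p = 0.218). Of the 35, edgeR called 0 lower (3 at an unadjusted p under 0.05). DESeq2 called 2 higher and 3 lower. Among these KDM4B, a histone demethylase, was at 152.9 and 158.3 CPM in Y537S and 255.9 and 193.4 CPM in D538G clones, with an adjusted p of 0.0732 in edgeR, 0.00293 with DESeq2, 0.0023 without the low-count filter and 0.0337 with WT libraries. None of the 5 factors and cofactors called by edgeR was called without D538G clone A5 (adjusted p from 0.107 for EHF to 0.28 for CTCF) or without C2 (0.091 for EHF to 0.186 for CTCF), and the calls were also lost for KLF4 without Y537S clone 1 (0.0824) and for CTCF and NCOA7 without clone 2 (0.0668 and 0.0622) and with the GC trend removed (0.0525 and 0.0566).

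Of 59 adhesion, junction and matrix genes tested, 4 were higher and 4 lower, with a median of 0.0037. Outside the shifted blocks 2 were higher and 4 lower of 56. CLDN1 was at 1325 and 1084 CPM in Y537S clones, 3302 and 2959 CPM in D538G clones and 2042 and 2216 CPM in WT clones (adjusted p = 0.00381). L1CAM, a neural cell adhesion molecule in the chromosome X block, was at 85.8 and 94.4 CPM in Y537S, 24.0 and 34.8 CPM in D538G and 167.4 and 177.1 CPM in WT clones. COL18A1, CDH3, encoding P-cadherin, and DSG2, a desmosomal cadherin, were higher, and COL4A6, COL4A5 and PCDH7, a protocadherin, lower. Leaving out clone A5 left 1 higher and 2 lower, and leaving out Y537S clone 1 gave 11 and 9. Among 10 mesenchymal transition factors tested, 9 had a positive difference but the member that edgeR called, TWIST1, was lower, at 0.826 and 1.65 CPM in Y537S and 6.07 and 5.61 CPM in D538G clones (adjusted p = 0.0216, and 0.0862 without A5). TGFB1, an inducer of the transition, was at 2.79 and 1.86 CPM in Y537S and 0.604 and 0.955 CPM in D538G clones. It did not pass in edgeR (adjusted p = 0.0755), but did with DESeq2 (0.0491), without the low-count filter (0.0128) and with summed transfections (0.0327). VIM, the intermediate filament vimentin, was under 1.5 CPM in each of these libraries and had a log2 difference of 2.57, which passed without the filter (0.0416) but not with it (0.177). Of 13 keratins, KRT23 was lower, at 117.7 and 93.3 against 262.6 and 248.0 CPM, and KRT80 was higher, at 250.4 and 241.1 against 160.7 and 158.6 CPM (adjusted p = 0.00755, and 0.0563 without A5). KRT8, a defining luminal keratin, had a log2 difference of 0.18 that did not pass (adjusted p = 0.192).

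**Figure D4:**
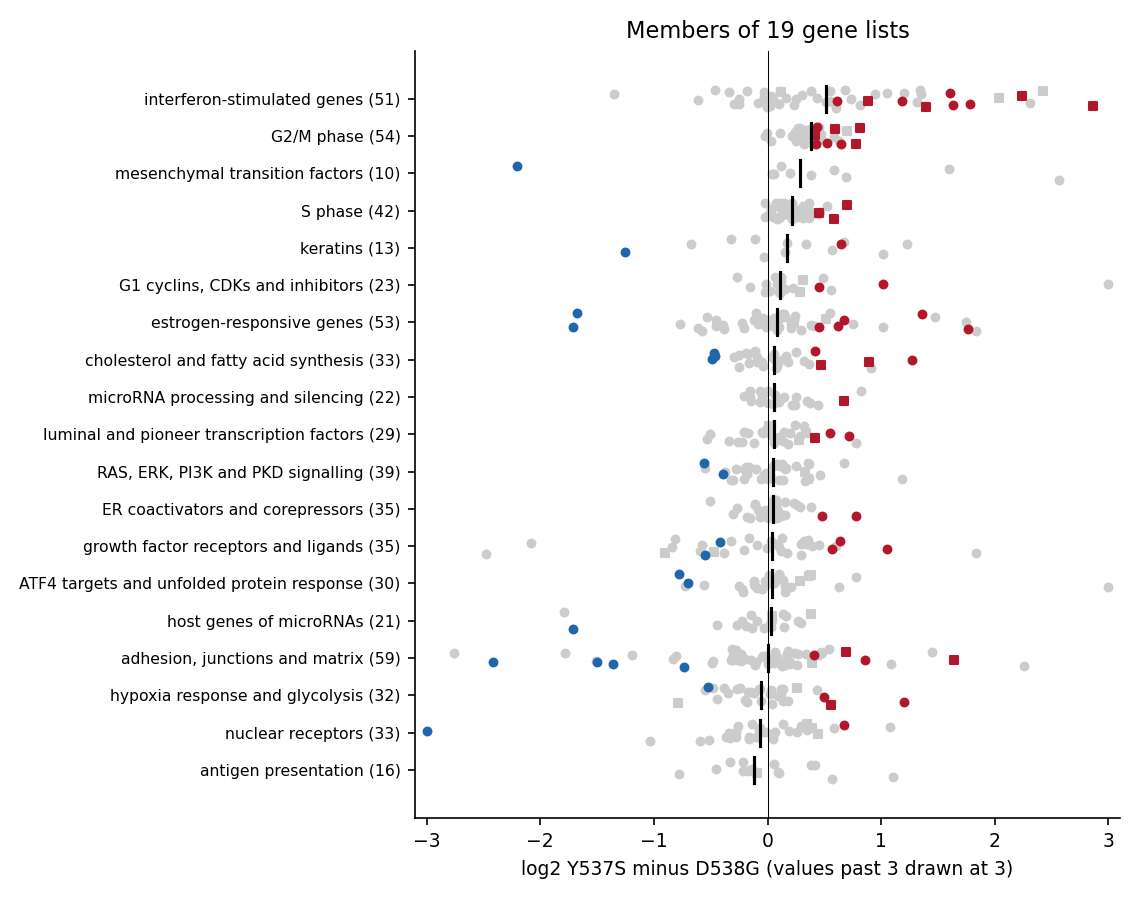
Log2 differences, Y537S minus D538G, of the tested members of 19 gene lists, with the number tested in parentheses and the black bar at the median. Red members were called higher, blue called lower and grey not called in Y537S cells, and squares lie in the shifted chromosome blocks. The medians of interferon-stimulated and G2/M genes, 0.52 and 0.38, are the highest.

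Growth factor receptors and ligands differed in both directions. ERBB2, the receptor HER2, was at 314.8 and 321.4 CPM in Y537S, 491.1 and 458.2 CPM in D538G and 691.8 and 665.3 CPM in WT clones (log2 difference -0.55, adjusted p = 0.0134). ERBB4, a receptor for neuregulins, was at 44.5 and 46.9 CPM against 32.0 and 30.9 CPM, FGFR3, a fibroblast growth factor receptor, at 47.3 and 40.3 against 27.5 and 29.6 CPM, and the ligand EGF at 10.8 and 15.4 against 6.18 and 6.68 CPM. GHR, the growth hormone receptor, had a log2 difference of -0.42. These 5, 3 higher and 2 lower, were the genes that edgeR called of 35 tested, while DESeq2 called 5 higher and 4 lower. Fits with a clone left out are not given here for EGF and GHR. ERBB2, ERBB4 and FGFR3 were not called without A5 (adjusted p of 0.124, 0.151 and 0.185), nor ERBB4 and FGFR3 without C2 (0.135 and 0.0807). Of 39 genes of RAS, ERK, PI3K and PKD signalling, edgeR called 0 higher and 2 lower (5 and 4 at an unadjusted p under 0.05), and DESeq2 called 3 higher and 2 lower. The 2 lower genes in edgeR encode inhibitors, SPRED2, a suppressor of RAS to ERK signalling (-0.56), and TSC1, a subunit of the complex that restrains mTOR (-0.39), and neither was called without A5 (0.248 and 0.247), nor TSC1 without C2 (0.167). NRAS, a RAS GTPase, had a log2 difference of 0.36 that did not pass in edgeR (adjusted p = 0.0587), but did with DESeq2 (0.0362), without the low-count filter (0.0299), with WT libraries (0.0304) and with summed transfections (0.0345). Genes that the study followed as miRNA targets or pathway members had small differences that did not pass. PIK3CB, a catalytic subunit of PI3K, had a log2 difference of 0.0049 and PRKD3, the kinase PKD3, one of 0.10. TUSC2, a tumor suppressor candidate, and PLAGL2, a zinc-finger factor, had differences of -0.07 and 0.0074, and the adjusted p of these 4 ran from 0.70 to 0.978.

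Lipid synthesis genes were also mixed, with 4 higher and 3 lower of 33 tested. FADS1, a fatty acid desaturase, was at 86.5 and 83.8 CPM in Y537S and 32.9 and 38.7 CPM in D538G clones (adjusted p = 0.004), and the sterol synthesis enzymes NSDHL, SQLE and MVK had log2 differences of 0.90, 0.42 and 0.47. NSDHL lies in the chromosome X block and MVK in the long chromosome 12 block. SREBF1, the master regulator of lipid synthesis (-0.46), FASN, fatty acid synthase (-0.47), and PMVK, phosphomevalonate kinase (-0.49), were lower. Of the called lipid genes, 4 were also called in the same direction in the miR-301b libraries, among them FADS1, NSDHL and PMVK. Most of SQLE, MVK, SREBF1 and FASN were thus not called there. Of 32 hypoxia and glycolysis genes, HIF1A (0.56, on chromosome 14), PFKP (0.50) and ADM (1.20) were higher and PFKFB3 (-0.53) lower. In the miR-301b libraries 2 of these were called, HIF1A and PFKP, and ADM and PFKFB3 were not. Of 30 ATF4 and unfolded protein response genes, DNAJC3, an inhibitor of eIF2 kinases (-0.78), and NUPR1, a stress-induced nuclear protein (-0.70), were lower. DNAJC3 lies in the stretch next to the lower chromosome 13 block. That stretch had a median of -0.12, with 8 of 49 genes called lower and 0 higher. Without A5, calls were lost for NSDHL, PMVK, HIF1A, PFKP, PFKFB3 and NUPR1, with adjusted p from 0.0543 for NSDHL to 0.209 for NUPR1, and without C2 for PMVK, HIF1A, PFKP and PFKFB3, with adjusted p from 0.0642 for HIF1A to 0.149 for PMVK. NUPR1 was also not called with the GC trend removed (0.0556). Fits with a clone left out are not given here for SQLE, MVK, SREBF1, FASN and ADM, so whether their calls held is not stated.

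Of 22 genes of miRNA processing and silencing, edgeR called DICER1 and DESeq2 called 3 members higher. DICER1, the RNase that cuts miRNA precursors, was at 307.3 and 299.7 CPM in Y537S and 177.4 and 208.2 CPM in D538G clones (log2 difference 0.68, adjusted p = 0.0124), and 0.0917 without A5. It lies on chromosome 14, where the median was 0.49, and the WT clones held 290.8 and 262.9 CPM. AGO2, the slicing Argonaute, was at 96.8 and 80.8 CPM against 64.2 and 68.1 CPM without passing (adjusted p = 0.0516). It passed with DESeq2 (0.00884), without the low-count filter (0.00731) and with WT libraries in the fit (0.0249). Its log2 difference was 0.45, and 0.56 without Y537S clone 2. LIN28A, which blocks the maturation of let-7 precursors, was at 28.1 and 45.8 CPM in Y537S and 21.6 and 21.0 CPM in D538G clones. It did not pass in edgeR (adjusted p = 0.0771), but did with DESeq2 (0.00234), without the low-count filter (0.00105), with WT libraries in the fit (0.0388) and with summed transfections (0.0244). Of 21 genes that host miRNAs, edgeR called CALCR, which was lower. WWP2, a ubiquitin ligase gene in the chromosome 16 block, had a log2 difference of 0.38 that passed with DESeq2 (adjusted p = 0.0256), without the low-count filter (0.0199) and with WT libraries (0.0337), but not in edgeR (0.0643).

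The study's miRNAs were compared with these genes through their seeds, bases 2 to 8, which pair with sites in 3′UTRs of mRNAs and lower them. The mature sequences are shown, from RefSeq, because the counts below rest on the letters in capitals, which mark the seed.
hsa-miR-301b-3p: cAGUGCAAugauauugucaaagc
hsa-miR-181c-5p: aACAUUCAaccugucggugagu
hsa-miR-331-3p: gCCCCUGGgccuauccuagaa
hsa-let-7f-5p: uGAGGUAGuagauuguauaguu
Genes with a 3′UTR match to the miR-301b seed (2125 genes) had a median log2 difference of 0.03 and those without (11042 genes) one of 0.0050. The difference in medians was 0.03 for miR-301b, 0.04 for miR-181c (2809 genes with a match), -0.03 for miR-331 (2038) and 0.03 for let-7f (1438). Genes with miR-331 matches had a median transcript GC content of 54.6%, against 43.1% for miR-181c matches. With the trend with GC content removed, the differences in medians were 0.0057, 0.0176, -0.0046 and 0.0111 in the same order.

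The clones of a genotype differed from each other too. The log2 difference between the clones had an SD of 0.54 across genes in Y537S and 0.45 in D538G cells, and it was at least 2-fold for 926 (6.20%) and 652 (4.37%) genes. Across genes it had a Pearson r between the control and each other transfection of 0.51 to 0.57 in Y537S and 0.22 to 0.24 in D538G clones; the points share clones but no library. The genes below, chosen for their clone difference, are a description.

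GFRA1, the co-receptor through which GDNF activates RET, was at 225.1 CPM in Y537S clone 1 and 0.377 CPM in clone 2. Over 5 transfections, clone 1 ranged from 219.4 to 263.9 CPM and clone 2 from 0.203 to 0.826 CPM. Both D538G clones expressed it, at 180.4 and 216.9 CPM, whereas the WT clones held 0.0813 and 0.0597 CPM. PSAT1, an enzyme of serine synthesis, was at 1.58 CPM in Y537S clone 1 and 61.4 CPM in clone 2, at 0.0549 and 0.477 CPM in the D538G clones and at 26.5 and 30.4 CPM in WT clones. Its genotype difference, 6.95 on the log2 scale, owed much of its size to Y537S clone 2 and was 2.58 without that clone. With both clones the difference did not pass in edgeR in the control libraries (adjusted p = 0.0666). It passed with clone 1 left out (2.26e-08), with DESeq2 (0.0161), without the low-count filter (4.4e-06), with WT libraries (0.0337) and in the miR-301b libraries (0.034). MAGEA1, a cancer-testis gene, and NLGN4X, a neuroligin, were low in Y537S clone 1 alone, at 1.37 and 2.63 CPM, against 28.3 and 23.7 CPM in clone 2 and at least 12.1 CPM in every D538G library. In D538G cells, CLDN8, a claudin, was at 50.4 CPM in A5 and 17.8 CPM in C2, and SULF1 at 0.714 and 4.42 CPM. These orders held in all 5 Y537S and all 3 D538G transfections, as the rule required.

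**Figure D5:**
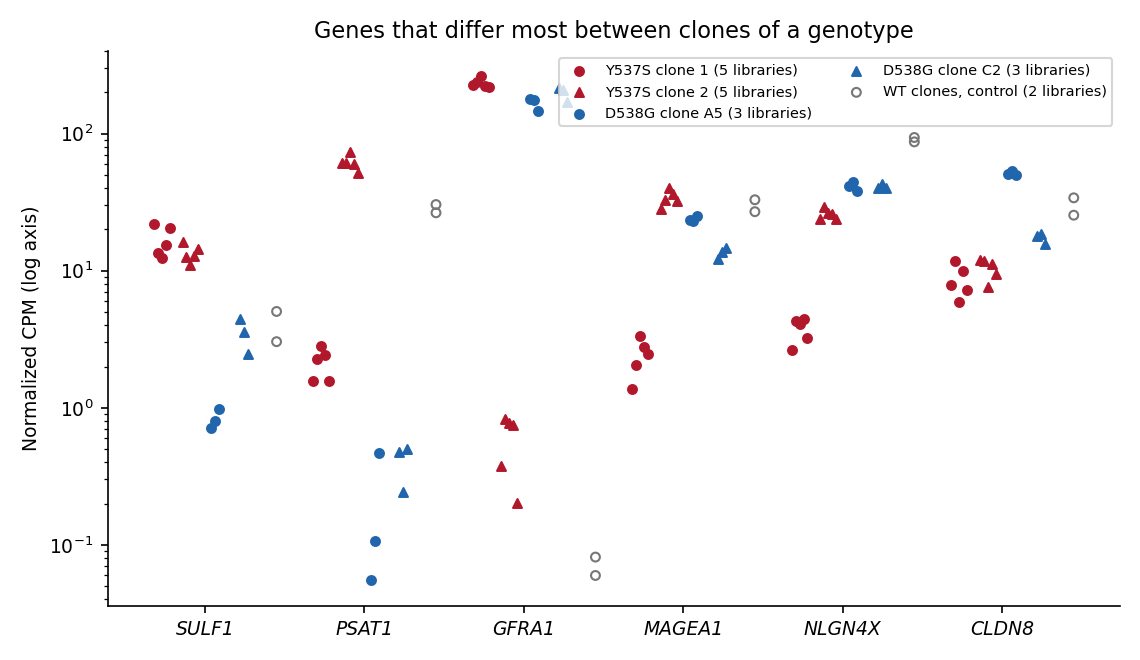
Normalized CPM on a log axis of 6 genes chosen for a large difference between clones of a genotype, in every Y537S (red, 5 per clone) and D538G (blue, 3 per clone) library, and in the WT control libraries (grey). GFRA1 is near 200 CPM in Y537S clone 1 and both D538G clones and under 1 CPM in Y537S clone 2.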

How the data were processed

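Poly-A RNA-seq libraries of 24 samples were compared as whole-transcriptome counts. According to the study's methods and the submitters' processing notes, the authors used HISAT2 for alignment (hg19) and featureCounts of Subread for counting against the UCSC Known Genes, and SAMtools is also named. Versions, the strand setting and the handling of multi-mapping reads are not given in the sources used here. The deposited values are raw counts of 26364 genes per library in 1 table per genotype, not normalized, and were joined on gene symbol. Y537S columns name the clones as the labels do; D538G and WT columns were assigned to their group.

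The 2 Y537S and 2 D538G control libraries (33756400 to 41382707 counts) were fitted with edgeR 4.0.16 in R 4.3.3 (TMM, filterByExpr, quasi-likelihood F test, Benjamini-Hochberg adjusted p under 0.05), with SE the log2 difference over the root of F. Printed CPM use TMM factors over all 24 libraries, so they can differ slightly from the fitted differences. The p-values test the genotype difference against the spread between the 2 clones of a genotype, which edgeR shares across genes. The steps were tested on simulated data. Alternatives were DESeq2 1.42.0, its size factors, no low-count filter, WT libraries in the fit, a GC trend removed, summed transfections, a test against a log2 difference of 1, a stricter threshold and leaving out each clone. Fitted p-values of the miR-301b contrast used the same steps.

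Named genes were ESR1 and 7 genes of the study, the 10 largest differences in each direction among called genes (mean of at least 3 log2 CPM, groups apart in both transfections), up to 6 on/off genes in each direction (under 0.1 against over 1 CPM), the 3 members of each of 19 lists with the smallest p, and the 4 genes per genotype with the largest clone difference, of which 4 are not reported here. Comparison, lists and rules were chosen with earlier results of these data known. Positions and 3′UTRs are from GENCODE v44 lifted to GRCh37 (hg19): 22494 genes matched by symbol and 1363 by an older symbol, 2507 did not match, and 18686 had a 3′UTR.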

Additional observations from a re-analysis of the deposited data

How the results depend on the processing

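The control count of 925 called genes became 1588 with DESeq2, 1991 without a filter on low counts, 1527 with WT libraries in the fit, 170 at an adjusted p under 0.01, 17 when tested against a log2 difference of 1 and 536 with the genes of the shifted blocks left out, an alternative chosen after seeing the data. Of the 925 genes, 911 were among the DESeq2 calls, 914 among the calls with WT libraries and 925 among those without a filter. Leaving out single clones gave 215 to 1780 calls. The miR-301b count of 1019 became 1756 with DESeq2 and 115 to 2385 with single clones left out. The 8 G2/M genes became 22 with DESeq2, 32 without the filter, 13 with WT libraries, 0 in edgeR's test against 1, 4 without the blocks and 0 to 34 with single clones left out. The 9 interferon-stimulated genes became 17 without the filter, 16 with summed transfections, 0 in the test against 1, 5 without the blocks and 1 to 15 with single clones left out. The cause of these moves was not tested, other than that a stricter threshold or test calls fewer genes by construction.

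Of 87 named genes, 64 were called; none of these changed direction in any alternative run, 59 stayed called in all 6 alternatives other than the test against 1 and the leave-one-out fits, and 30 stayed called in all 4 leave-one-out fits. Named genes called in the control libraries but not by edgeR in the miR-301b libraries included LCOR, IFIT1 and CALCR (adjusted p = 0.218, 0.201 and 0.149). Others were nearer the threshold there: UBR7 (0.0633), PFKFB3 (0.0623), GJA1 (0.0609), KLF4 (0.0561), CDK2 (0.0535), KRT80 (0.0510) and KIF14 (0.0505). Genes not called changed sign as follows. With summed transfections, PIK3CB went to -0.040 and PLAGL2 to -0.018, and with the GC trend removed PIK3CB went to -0.042. With single clones left out, the log2 difference ran from -0.48 to 0.10 for ESR1, -0.039 to 0.050 for PIK3CB, -0.10 to 0.29 for PRKD3, -0.15 to 0.0045 for TUSC2, -0.057 to 0.071 for PLAGL2, -8.99 to 0.19 for GFRA1 and -3.70 to 0.70 for MAGEA1.

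No paired analysis was possible between the genotypes because the D538G columns, A5 and C2, carry no replicate number to match to a Y537S clone. Such a number would not make a pair either, because the Y537S and the D538G clones are different clones. With 2 clones per genotype, clone differences such as that of GFRA1 cannot be averaged out, and low counts limit the genes near 0 CPM.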
